A study of Homo sapiens with 22 samples.

Results

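Interferon-stimulated genes encode the antiviral and immune proteins that a cell makes after interferon binds its receptors. Type I interferon binds IFNAR1 and IFNAR2, the kinases JAK1 and TYK2 act on STAT proteins, and STAT2 and IRF9 are parts of a complex called ISGF3, which binds the interferon-stimulated response element (ISRE) near the start of the genes. Interferon gamma acts through other receptors and through the gamma-activated sequence (GAS). Many of these genes are also expressed at a low level in myeloid cells without any infection. The genes described here were listed by symbol, with earlier results of these data known, so the choice was not independent of these data. All 44 symbols looked up were found among 28063 gene rows. They were sorted into 7 groups by the role of their proteins. All 44 passed the filter on low counts, which left 16794 genes to test. A gene passes that filter with about 10 counts in 2 libraries, so a member can pass through 1 group alone.

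The measurements are RNA-seq of polyadenylated RNA from 3 human acute myeloid leukaemia cell lines, MOLM-13, MV-4-11 and THP-1, which all carry KMT2A fusions. The lines were given BRM014, an inhibitor of the ATPases SMARCA4 and SMARCA2 of the SWI/SNF chromatin remodelling complex, at 1 µM for 24 h or 72 h, or the solvent dimethyl sulfoxide (DMSO). THP-1, a monocytic line, had 2 further treatments. Phorbol 12-myristate 13-acetate (PMA), which turns THP-1 cells into macrophage-like cells, was given at 10 nM for 48 h and then withdrawn for 24 h. DB2313, an inhibitor of the myeloid transcription factor PU.1, was given at 3 µM for 72 h. No group received interferon, and the labels give no genetic change in any group beyond those of the lines. Each of the 11 groups had 2 libraries, 22 in all, so each group below has n = 2 and its values are written replicate 1/replicate 2. Separate cultures are not named in the labels for the libraries of a group, so every p-value here reflects library-to-library spread that could be technical. A single DMSO group per line served both times, and its length of exposure is not labelled. In THP-1 the BRM014, PMA and DB2313 comparisons share that DMSO group.

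Libraries held 15893489 to 21565666 reads in genes, so that 3 counts, the limit that a count of 0 allows, equal 0.139 to 0.189 CPM, the count of a gene scaled to all reads in genes of its library. Intervals and limits of this kind cover counting error only. The log2 CPM of the libraries of a group correlated across genes with r of 0.987 to 0.996, lowest in PMA, whose libraries also differed most in their counts (chi-square per degree of freedom 30.4, against 3.14 to 10.7 elsewhere). The 7 myeloid markers checked summed to 672 to 10645 CPM per library, highest in PMA. Markers of T cells, B cells and erythroid cells summed to at most 2.24, 13.8 and 0.178 CPM. The 3 fibroblast markers summed to 0.850 to 123 CPM and the 3 epithelial markers to 0 to 35.9 CPM, both highest in THP-1 with 72 h of BRM014, where COL1A1 and CDH1 had mean levels of 118 and 33.0 CPM. Those of plasmacytoid dendritic cells, which produce type I interferon, summed to 1.12 to 34.5 CPM. That last sum came from TCF4, while CLEC4C and LILRA4 had group means of at most 0.0307 and 0.0479 CPM. In such bulk RNA, fewer cells that express a gene and less RNA per cell cannot be told apart.

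The promoters of the members show the sequence that ISGF3 binds. RefSeq promoter windows of 300 bases, from 250 before to 50 after a start site (GRCh38.p14), were found for 35 of the 44 genes. Those not matched were IFIT2, IFITM2, OAS2, OASL, MX2, TRIM22, USP18, GBP2 and GBP5. The ISRE core, searched as GAAA, any 2 bases and GAAA on both strands, was found in 27 of the 35 members matched (77.1%) and in 4.38% of 27305 genes with such a window. The GAS core TTCNNNGAA was found in 9 members (25.7%, against 9.38% of genes), and a PU.1 core GAGGAAGT in 2 members, OAS3 and SAMD9L (5.71%, against 3.15%). A match describes these letters only and is not a bound site. Stretches of 60 bases from the promoters of 5 members whose values are given below follow. They run 5′ to 3′ along the gene's own strand, with 1 ISRE core in capitals. The IFIT1 and ISG15 stretches each hold a further core left in lower case, 93 and 97 bases before the start. In ISG15 this further core overlaps the capitals. A core on the opposite strand reads TTTC, any 2 bases and TTTC. They come from chr10:89392482-89392541 (plus strand, IFIT1), chr10:89327816-89327875 (plus, IFIT3), chr1:1013359-1013418 (plus, ISG15), chr1:27672314-27672373 (minus, IFI6) and chr1:78620259-78620318 (plus, IFI44L).
IFIT1: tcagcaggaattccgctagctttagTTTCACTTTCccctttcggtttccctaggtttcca
IFIT3: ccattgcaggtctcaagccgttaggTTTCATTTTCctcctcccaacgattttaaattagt
ISG15: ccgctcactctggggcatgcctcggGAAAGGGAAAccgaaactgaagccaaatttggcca
IFI6: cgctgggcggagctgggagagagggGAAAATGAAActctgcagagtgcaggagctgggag
IFI44L: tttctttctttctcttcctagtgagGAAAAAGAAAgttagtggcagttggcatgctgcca

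The PU.1 core is shown because DB2313 acts on that factor. It lies at chr12:112938238-112938297 (plus strand, OAS3) and chr7:93148386-93148445 (minus strand, SAMD9L), again in capitals, on the opposite strand in SAMD9L.
OAS3: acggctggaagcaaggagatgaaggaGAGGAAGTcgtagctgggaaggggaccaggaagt
SAMD9L: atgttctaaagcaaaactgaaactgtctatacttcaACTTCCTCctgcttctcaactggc

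BRM014 changed most of the interferon-stimulated genes in each of the 3 lines. In MOLM-13 most of them fell, in MV-4-11 most rose by 72 h, and in THP-1 more fell than rose at 24 h and nearly equal numbers rose and fell at 72 h. A gene was called higher or lower at an edgeR adjusted p under 0.05, adjusted over all 16794 genes, and fold changes are given on a log2 scale with their standard error (SE). In MOLM-13, 5 members were higher and 28 lower at 24 h, where 22.7% and 23.5% of all genes were, and 6 were higher and 28 lower at 72 h, where 30.3% and 29.4% of all genes were. The median log2 fold change of the 44 members there was -1.21 at 24 h and -1.75 at 72 h, or -1.10 and -1.67 with groups at 0 counts set to 3 counts, against 0 over all genes. In each comparison within MOLM-13 or MV-4-11 that 0 is the fitted value of the 955 to 1114 tested genes with no count in either group, which lie at the middle of the order. Without them the MOLM-13 median of all genes was 0.0057 at 24 h, and 0.056 after 72 h. In MV-4-11, 12 members were higher and 17 lower at 24 h (23.6% and 22.4% of all genes), with a median of -0.29 or, at that floor, -0.12. At 72 h 24 were higher and 8 lower (28.4% and 26.1%), with a median of 0.84, against 0 over all genes at both times (9.81e-05 and 0.039 without those genes). In THP-1, 13 were higher and 20 lower at 24 h (25.9% and 24.1%) with a median of -0.30, and 18 were higher and 16 lower at 72 h (30.9% and 28%) with a median of 0.0082, where all genes had medians of 0.039 and 0.060. The counts of members higher in MV-4-11 and in THP-1 at 24 h, as shares of the 44, lay near those of all genes. The called falls in MOLM-13 ranged from -0.57 to -8.32 at 72 h, and the called rises in MV-4-11 from 0.46 to 6.02. The far ends, OAS2 in MOLM-13 and GBP5 in MV-4-11, have a group at or near 0 counts, so these fitted values depend on the prior count. The next largest called rise in MV-4-11 was that of IFIT1, 4.71. Beside these values the summed myeloid markers of MOLM-13 were 1051 to 1075 CPM under DMSO, 744 to 750.0 at 24 h and 1707 to 1744 at 72 h. Those of MV-4-11 were 1057 to 1073, 672 to 716 and 1139 to 1169.6 CPM, and those of THP-1 2870 to 3027, 1136 to 1171 and 1041 to 1043 CPM, in the same order. Within the MOLM-13 sum the markers moved apart. CD68 had a mean of 101 CPM there under DMSO, the lowest of the 11 groups, and of 1014 CPM at 72 h, the highest. PTPRC had its lowest group mean, 83.8 CPM, in MOLM-13 at 72 h, and MPO its highest, 167 CPM, in MOLM-13 under DMSO. In THP-1 the fibroblast markers summed to 2.19 to 2.57 CPM under DMSO, 10.2 to 10.8 at 24 h and 115 to 123 at 72 h, with COL1A2 at 0 throughout, and the epithelial markers to 0 to 0.0495, 3.94 to 4.18 and 30.7 to 35.9 CPM. Their part in the changes of the set was not tested.

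**Figure D1:**
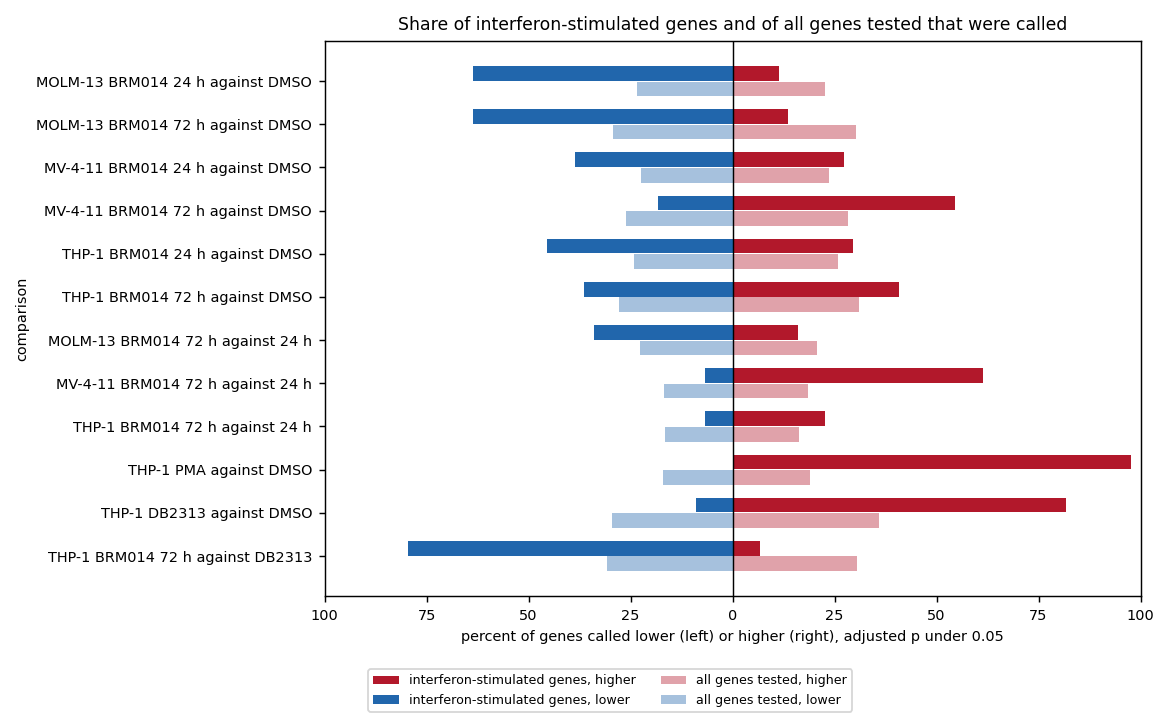
Share of the 44 interferon-stimulated genes called higher or lower (percent, adjusted p under 0.05) in each comparison, beside the same share of the 16794 genes tested. In MOLM-13 the members called lower number 28 at both times, and after PMA 43 of 44 members were higher.

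PMA and DB2313 raised most of the set in THP-1. After PMA 43 of 44 members were higher and 0 lower, where 18.9% and 17.1% of all genes were, with a median log2 fold change of 3.01 (2.93 with groups at 0 counts at the floor) against -0.018 over all genes. After DB2313 36 were higher and 4 lower, where 35.9% and 29.5% of all genes were, with a median of 1.78 (1.64 at the floor) against 0.14. Both comparisons use the same DMSO libraries, so their counts are given side by side only. The single member not called after PMA was IFITM2, at 37.6/37.1 CPM in DMSO and 32.4/36.9 CPM after PMA.

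**Figure D2:**
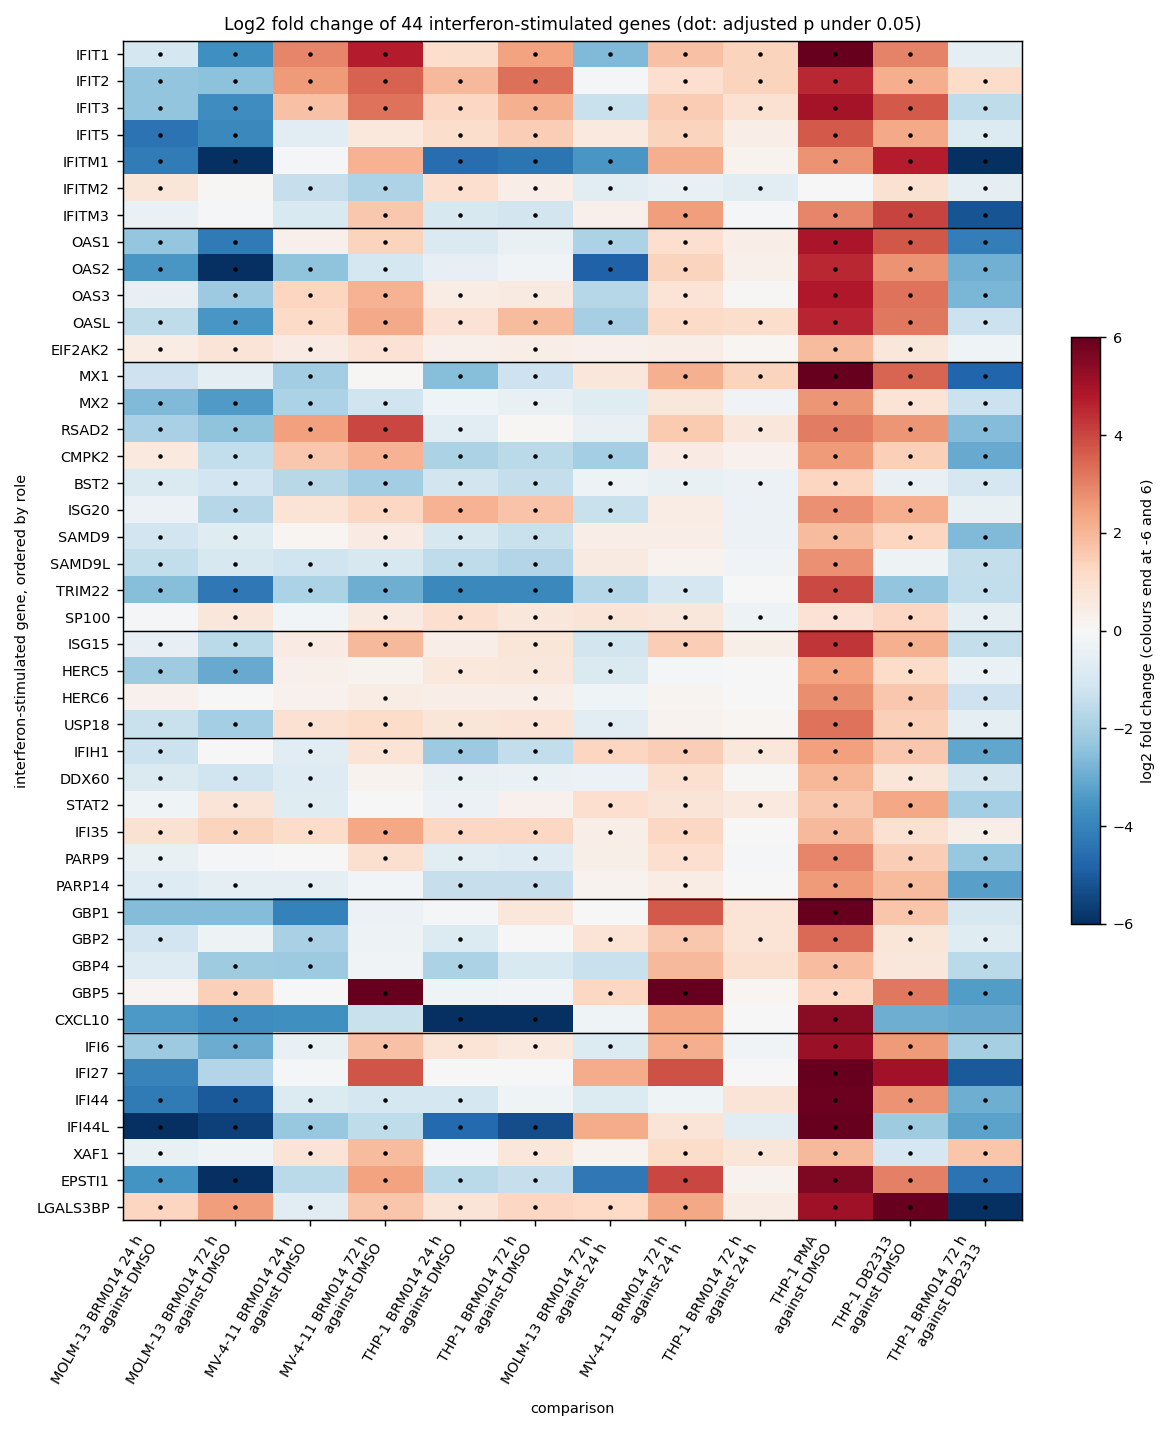
Log2 fold change of each of the 44 members (rows, by role) in the 12 comparisons (columns), with a dot where the adjusted p is under 0.05 and colours that end at -6 and 6. The IFIT rows are blue in MOLM-13 and mostly red elsewhere, and the PMA column is red throughout apart from IFITM2; fold changes of genes with a group at or near 0 counts depend on the prior count.

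Under DMSO, 36 of the 44 members differed in level between the lines by edgeR's F test over the 3 lines, a share near the 78.9% of all genes. MOLM-13 was highest in 13 of these, among them IFIT1, IFIT2, IFIT3, IFITM1, ISG15, OASL and RSAD2. MV-4-11 was highest in 10, among them OAS2, TRIM22, IFI44, IFI44L and IFI6, and THP-1 in 13, among them OAS3, MX1, MX2, IFITM3 and CMPK2. For IFIT2, MOLM-13 had 55.1/51.5 CPM, MV-4-11 had 0.445/0.527 and THP-1 had 1.82/1.53. Per length, BST2 had the highest DMSO level of the set in every line, at 126 RPKM (CPM per kilobase of exon) in MOLM-13, 26.6 in MV-4-11 and 109 in THP-1. The members not called different between lines were IFITM2, SAMD9, IFIH1, IFI35, PARP9, GBP1, CXCL10 and IFI27.

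The IFIT proteins bind foreign RNA, and the IFITM proteins are membrane proteins that hinder the entry of viruses. The IFIT genes lie side by side on chromosome 10 (89283694 to 89421001) and the IFITM genes on chromosome 11 (307631 to 327537), in GENCODE 29 on GRCh38. Of these 7 genes, 5 fell in MOLM-13 at either time, 4 rose in MV-4-11 at 72 h, and 5 rose and 2 fell in THP-1 at 72 h. Of all genes, 23.5% and 29.4% fell in MOLM-13 at 24 h and 72 h. At 72 h 28.4% rose in MV-4-11, and 30.9% rose and 28% fell in THP-1. IFIT1 stood in MOLM-13 at 18/17.9 CPM under DMSO, 7.69/11.2 after 24 h and 0.939/2.24 at the later time. Its libraries fell in step with time, to a 72 h log2 change of -3.70 ± 0.38 (edgeR adjusted p = 3.62e-08). At 24 h the change was -1.05 ± 0.31, and without BRM014 replicate 1 it was -0.81 and no longer called (edgeR adjusted p = 0.109). Without BRM014 replicate 2 the 72 h change was -4.44. In MV-4-11 the same gene stood at 0.445/0.240 CPM under DMSO, then 3.08/2.42 at 24 h and 10.8/7.84 by 72 h. There it rose from near the detection limit, with log2 changes of 2.94 ± 0.58 (edgeR adjusted p = 0.000273) and, by 72 h, 4.71 ± 0.50 (edgeR adjusted p = 8.98e-08). THP-1 went from 1.13/1.09 CPM to 3.81/8.83 at 72 h, a rise of 2.41 ± 0.43 (edgeR adjusted p = 6.86e-05), or of 1.70 without BRM014 replicate 2, its higher library. At 24 h, with 3.19/1.62 CPM, it was not called.

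IFIT2 and IFIT3, like IFIT1, were lower than with DMSO in MOLM-13 and higher in MV-4-11 and THP-1 at 72 h. In MOLM-13 IFIT1 and IFIT3 fell further from 24 h to 72 h (-2.65 and -1.35), and IFIT2 was not called between these times. IFIT2 went in MOLM-13 from 55.1/51.5 CPM to 11.2/11.1 at 24 h and 10.7/11.6 at 72 h, with log2 changes of -2.38 ± 0.19 and -2.45 ± 0.19 against DMSO. In MV-4-11 its 24 h libraries had 2.97/3.09 CPM and its 72 h libraries 7.04/4.98 CPM, rises of 2.55 ± 0.35 (edgeR adjusted p = 4.00e-06) and 3.54 ± 0.32. In THP-1 they had 6.59/6.54 CPM and 17.7/16.8 CPM, rises of 1.93 ± 0.25 (edgeR adjusted p = 2.72e-06) and 3.28 ± 0.24 (edgeR adjusted p = 4.01e-10). The treated and DMSO libraries did not overlap in any line, and the order of the lines under DMSO, with MOLM-13 highest, had turned by 72 h so that THP-1 was highest. IFIT3 fell in MOLM-13 from 41.4/36.4 CPM to 2.67/4.10 at 72 h (-3.72 ± 0.18). It rose in MV-4-11 from 1.28/1.68 CPM to 15.3/14.5 (3.26 ± 0.21) and in THP-1 from 3.13/2.72 CPM to 13.6/13.5 (2.13 ± 0.19, edgeR adjusted p = 6.33e-09). LIPA overlaps IFIT1, IFIT2 and IFIT3 on the other strand, and the strand setting of the counting is not given in the sources used here. IFIT5 was near 0 in MOLM-13 after BRM014, at 0/0.0607 CPM against 0.948/0.503 under DMSO at 24 h, a ratio of 0.0419 (95% interval 0.00102 to 0.257). Its fitted change there was -4.43 ± 0.80 (edgeR adjusted p = 0.000112), or -3.58 and -6.95 without BRM014 replicates 1 and 2.

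The IFITM genes behaved differently from one another. IFITM1 fell in MOLM-13 from 6.16/5.22 CPM to 0.310/0.364 at 24 h and 0.0494/0 at 72 h. The 72 h libraries held so few counts that the ratio to DMSO was 0.00449 (95% interval 0.000113 to 0.0253), with a fitted change of -7.65 ± 0.50 (edgeR adjusted p = 3.48e-11) that moved to -9.89 and -6.86 without BRM014 replicates 1 and 2. In THP-1 it fell from 4.01/4.16 CPM to 0.209/0.139 at 24 h (-4.56 ± 0.38, edgeR adjusted p = 4.95e-09) and 0.221/0.184 at 72 h (-4.37 ± 0.39, edgeR adjusted p = 6.44e-09). In MV-4-11 all libraries held at most 0.156 CPM of it, at the limit of detection. IFITM2, the member of this group with the highest mean level, was higher in MOLM-13 at 24 h, where its 59.3/58.1 CPM compared with 30.8/35.1 under DMSO (0.71 ± 0.14, edgeR adjusted p = 0.000307). At 72 h it had 37.2/43.1 CPM and was not called. In MV-4-11 it fell from 31.1/39.5 CPM to 15.7/12.4 at 24 h (-1.41 ± 0.15) and 11.3/9.09 at 72 h (-1.85 ± 0.16, edgeR adjusted p = 3.02e-09). In THP-1 it rose from 37.6/37.1 CPM to 81.4/73.7 at 24 h (1.01 ± 0.14), opposite to MV-4-11. Reads can be shared among these copies: 32.0% to 35.2% of the 50-base windows of each of IFITM1, IFITM2 and IFITM3 also occur in another gene, so the split between them is uncertain.

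The OAS enzymes make 2-5A, a signal that activates RNase L, and EIF2AK2 encodes PKR, which halts translation on sensing double-stranded RNA. In MOLM-13, OAS1, OAS2 and OASL fell at 24 h and OAS3 also at 72 h, while EIF2AK2 rose at both times. In MV-4-11 at 72 h OAS1, OAS3, OASL and EIF2AK2 rose and OAS2 fell. OAS2 stood in MOLM-13 at 9.54/8.62 CPM under DMSO, 0.248/1.52 at 24 h and 0.0494/0 at 72 h. Only 1 count was left at 72 h over both libraries, a ratio of 0.00282 (95% interval 7.11e-05 to 0.0158) to DMSO, and the fitted change was -8.32 ± 0.64 (edgeR adjusted p = 4.58e-10), or -10.56 and -7.53 without BRM014 replicates 1 and 2. In MV-4-11 it fell from 18.4/18.3 CPM to 3.57/3.71 at 24 h (-2.40 ± 0.25, edgeR adjusted p = 1.01e-07) and stood at 10.3/8.20 at 72 h (-1.05 ± 0.22). Its 24 h libraries were the lowest of that line. OAS3, the most abundant of the group, was near the detection limit in MOLM-13, with 0.593/0.692 CPM under DMSO and 0.0988/0.213 at 72 h, a change of -2.20 ± 0.77 that was not called without DMSO replicate 2 or BRM014 replicate 1 (-2.08 and -1.75). In MV-4-11 it rose from 10.0/10.4 CPM to 25.3/26.5 at 24 h (1.27 ± 0.17) and 46.9/43.8 at 72 h (2.09 ± 0.17). In THP-1 it had 17.8/16.5 CPM under DMSO, 23.5/24.5 at 24 h and 24.0/28.5 at 72 h, rises of 0.44 ± 0.16 and 0.53 ± 0.17, of which the first was called in no fit that left out 1 of these libraries (at the widest 0.49 without DMSO replicate 1 and 0.40 without DMSO replicate 2).

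**Figure D3:**
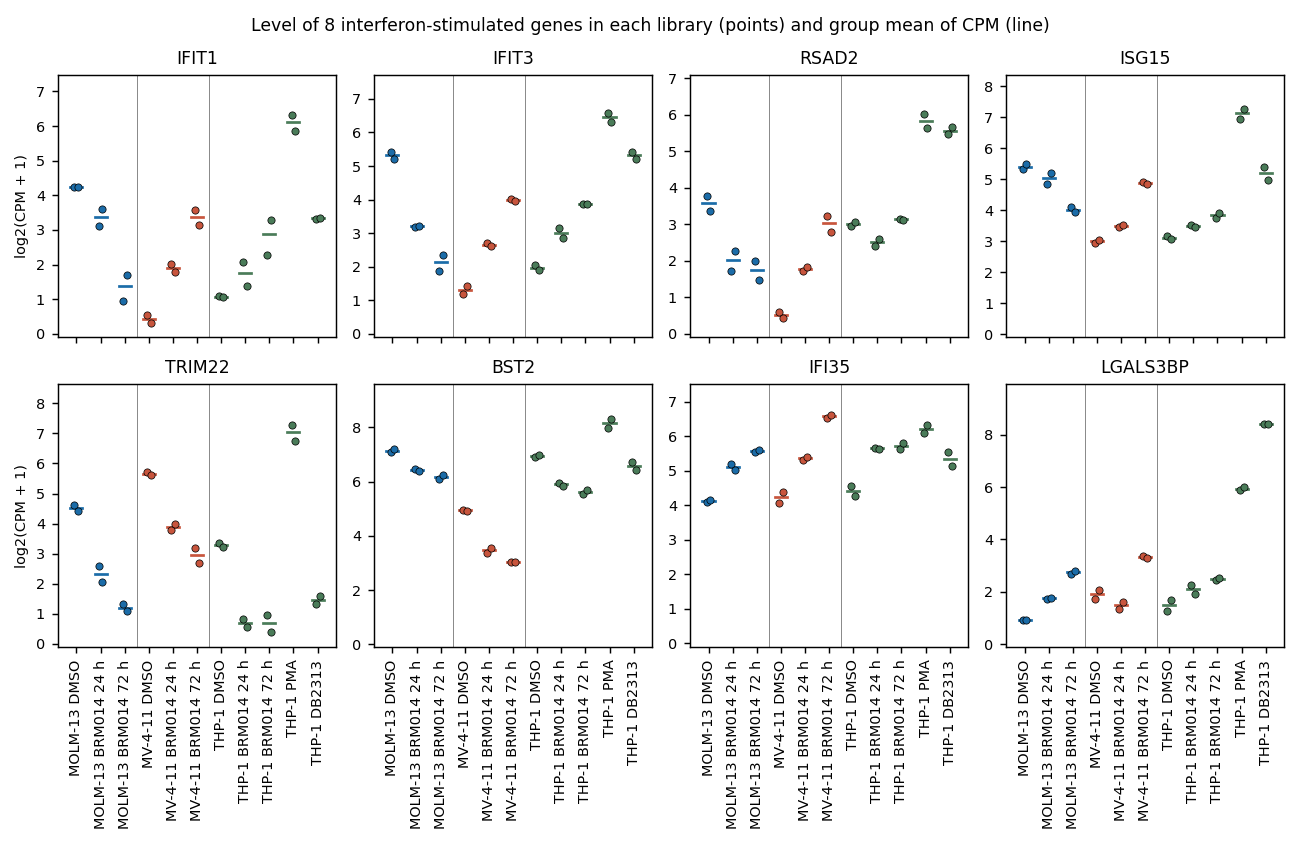
Level of 8 members in each library, as log2(CPM + 1), for the 11 groups, with points for libraries and lines for the mean CPM of each group. IFIT1 and IFIT3 start high in MOLM-13 and fall with BRM014, and start low in MV-4-11 and rise, while TRIM22 and BST2 are below DMSO in all 3 lines and IFI35 above it.

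The group of MX GTPases, RSAD2 and other restriction factors acts on viral replication and release. Here 8 of 10 fell in MOLM-13 at 72 h and 1 rose. Of the 10, 4 fell and 5 rose in MV-4-11, while 7 fell and 2 rose in THP-1. Over all genes at 72 h, 29.4%, 26.1% and 28% fell in this order of lines, while 30.3%, 28.4% and 30.9% rose. The counts that rose in MOLM-13 and THP-1, as shares of the 10, lay below those of all genes. RSAD2 encodes viperin, which makes a chain-terminating nucleotide. It stood in MOLM-13 at 12.6/9.31 CPM under DMSO, 2.30/3.82 at 24 h and 2.96/1.76 at 72 h (-2.39 ± 0.25). In MV-4-11 it rose from 0.500/0.335 CPM to 2.27/2.52 (2.45 ± 0.40, edgeR adjusted p = 3.28e-05) and 8.32/5.87 (4.02 ± 0.35, edgeR adjusted p = 3.66e-09). By 72 h MV-4-11 stood above MOLM-13. In THP-1 it had 6.64/7.27 CPM under DMSO, 4.29/5.01 at 24 h and 7.85/7.60 at 72 h. The 24 h change of -0.63 ± 0.23 was not called in any fit without 1 of those libraries (-0.53 and -0.74 without BRM014 replicates 1 and 2, -0.70 and -0.55 without DMSO replicates 1 and 2), and there was no call at 72 h. CMPK2, a mitochondrial nucleotide kinase whose gene overlaps RSAD2 on the other strand, fell in MOLM-13 and THP-1 at 72 h (-1.47 and -1.60) and rose in MV-4-11 (2.11).

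BST2, SAMD9L and TRIM22 of this group, with IFI44L, were the 4 members lower in all 6 BRM014 comparisons, where 7.61% of all genes were. As a share of the 44 members, these 4 lay near that of all genes. The 24 h and 72 h comparisons of a line share its DMSO libraries. BST2 encodes tetherin, which holds budding viruses at the cell surface. It fell in MOLM-13 from 134/147 CPM to 87.2/83.8 and 68.0/74.9 at 24 h and 72 h, in MV-4-11 from 30.2/29.3 CPM to 9.35/10.6 and 7.27/7.11, and in THP-1 from 119/125 CPM to 60.7/56.2 and 45.3/50.1. Its 72 h changes were -1.17 ± 0.12, -2.11 ± 0.15 (edgeR adjusted p = 1.80e-10) and -1.45 ± 0.12 in that order of lines. TRIM22, a ubiquitin ligase, went from 23.8/20.4 CPM to 4.96/3.16 and 1.48/1.12 in MOLM-13 and from 51.0/48.3 to 12.8/14.8 and 8.20/5.40 in MV-4-11. In THP-1 it went from 9.33/8.41 CPM to 0.784/0.464 and 0.940/0.307. The 72 h changes were -4.27 ± 0.28, -2.93 ± 0.22 (edgeR adjusted p = 4.41e-10) and -3.86 ± 0.36, the last -4.91 without BRM014 replicate 1. It stayed under 1 CPM in every THP-1 library with BRM014, and 13.4% of its 50-base windows occur in another gene. SAMD9L, a growth inhibitor related to SAMD9, fell by 0.94 to 1.74 on the log2 scale over the 6 comparisons. SP100, a nuclear body protein with the highest mean level of the group, had 61.7/56.6 CPM under DMSO in MOLM-13 and 106/110.1 at 72 h (0.68 ± 0.10). It had 41.9/39.5 and 62.7/59.9 CPM in MV-4-11 (0.53 ± 0.11), and THP-1 held 76.5/76.7 CPM before and 132/128 after 72 h (0.67 ± 0.10). It was among the 4 members higher in all 3 lines at 72 h, with EIF2AK2, IFI35 and LGALS3BP, where 13.5% of all genes were. These 4 of the 44 members were a share no higher than that of all genes. The EIF2AK2 rise in THP-1 (0.42 ± 0.16) was not called in any fit without 1 of its libraries (0.40 and 0.44 without BRM014 replicates 1 and 2, 0.43 and 0.41 without DMSO replicates 1 and 2). ISG20, an RNA exonuclease, rose in THP-1 at 24 h from 0.501/0.544 CPM to 1.88/2.74 (2.08 ± 0.42, edgeR adjusted p = 0.000359).

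ISG15 is a ubiquitin-like protein, HERC5 is the main ligase that attaches it and HERC6 a relative, and USP18 removes it and restrains the receptor. In MOLM-13 ISG15, HERC5 and USP18 fell at both times. In THP-1 all 4 genes rose by 72 h, and in MV-4-11 all but HERC5, where 30.9% and 28.4% of all genes rose. ISG15 stood in MOLM-13 at 38.9/43.5 CPM under DMSO, 27.8/35.3 at 24 h and 16.1/14.4 at 72 h (-1.63 ± 0.15, edgeR adjusted p = 1.11e-08). In MV-4-11 it stood at 6.61/7.28 CPM, 10.1/10.5 and 28.8/27.9 (1.97 ± 0.17, edgeR adjusted p = 3.47e-09), and in THP-1 at 7.89/7.32 CPM, 10.5/10.1 and 12.3/14.2 (0.72 ± 0.18). Highest under DMSO in MOLM-13, it was highest after 72 h of BRM014 in MV-4-11. The smaller 24 h changes of -0.51 ± 0.15 in MOLM-13 and 0.49 ± 0.18 in MV-4-11 were not called in several of the fits that left out 1 library, with -0.35 without BRM014 replicate 1 and -0.41 without DMSO replicate 2 in MOLM-13. In MV-4-11 they were 0.52 and 0.46 without BRM014 replicates 1 and 2 and 0.42 and 0.58 without DMSO replicates 1 and 2. USP18, whose sequence is 23.4% shared with other genes, chiefly USP41, changed by -2.03 ± 0.20, 1.12 ± 0.17 and 0.81 ± 0.18 at 72 h in MOLM-13, MV-4-11 and THP-1.

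Most sensing and signalling members fell at 24 h, and fewer were lower at 72 h. IFIH1 encodes MDA5, a sensor of long double-stranded RNA, DDX60 a helicase, STAT2 the transactivating part of ISGF3, IFI35 a regulator of innate signalling, and PARP9 and PARP14 ADP-ribosyltransferase family proteins. At 24 h 5 of 6 fell in MOLM-13 and in THP-1 and 4 of 6 in MV-4-11, while IFI35 rose in all 3 lines. At 72 h 2 of 6 were lower in MOLM-13, 4 in THP-1 and 0 in MV-4-11. Of all genes, 23.5%, 24.1% and 22.4% were lower at 24 h in MOLM-13, THP-1 and MV-4-11. The shares at 72 h were 29.4%, 28% and 26.1%, and the MOLM-13 count at 72 h lay near its share. Over all 7 role groups, 10 members were lower in all 3 lines at 24 h, where 9.49% of all genes were: BST2, SAMD9L, TRIM22, IFIH1, DDX60, STAT2, PARP14, GBP2, IFI44 and IFI44L. For GBP2 in THP-1 the call (-0.81 ± 0.31) was lost in each fit without 1 of the 4 libraries (-0.92 and -0.70 without BRM014 replicates 1 and 2, -0.66 and -0.96 without DMSO replicates 1 and 2). At 72 h 5 were, MX2, BST2, SAMD9L, TRIM22 and IFI44L, where 14.5% of all genes were. These 5 of the 44 members were a share no higher than that of all genes. For MX2 in THP-1 the call (-0.46 ± 0.19) was lost without BRM014 replicate 1 (-0.33) and without DMSO replicate 1 or 2 (-0.47 and -0.44). STAT2 had in MOLM-13 79.6/84.4 CPM under DMSO, 70.8/77.6 at 24 h and 162/154 at 72 h. Its 72 h rise of 0.75 ± 0.11 (edgeR adjusted p = 3.63e-06) held in every fit that left out 1 library. The 24 h change of -0.27 ± 0.11 held in none of them, with -0.21 and -0.33 without BRM014 replicates 1 and 2 and -0.33 and -0.21 without DMSO replicates 1 and 2. In MV-4-11 it went from 94.0/87.7 CPM to 54.0/59.8 at 24 h (-0.74 ± 0.11) and 101/93.8 at 72 h, where its libraries overlapped those of DMSO. In THP-1 its 77.5/65.5 CPM under DMSO compared with 55.7/61.5 at 24 h (-0.33 ± 0.11) and 91.9/87.4 at 72 h, and the 24 h call was lost without BRM014 replicate 1 (-0.27) or DMSO replicate 1 (-0.21).

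IFI35 was the only member higher in all 6 BRM014 comparisons, where 7.05% of all genes were, and the only 1 higher in all 3 lines at 24 h, where 9.12% were. It rose in MOLM-13 from 16/16.7 CPM to 35.7/31.5 at 24 h (0.92 ± 0.15, edgeR adjusted p = 4.11e-05) and 45.2/47.8 at 72 h (1.32 ± 0.15, edgeR adjusted p = 1.49e-07). In MV-4-11 it rose from 15.8/20.0 CPM to 38.9/41.2 (1.08 ± 0.15) and 91.3/97.1 (2.33 ± 0.14), and in THP-1 from 22.4/18.5 CPM to 49.6/48.5 (1.22 ± 0.14, edgeR adjusted p = 6.21e-07) and 48.3/55.2 (1.26 ± 0.14). Its DMSO levels did not differ between lines by the test, and its rise at 72 h was largest in MV-4-11. IFIH1 fell at 24 h by 1.31, 0.66 and 2.17 on the log2 scale in MOLM-13, MV-4-11 and THP-1. At 72 h it was 0.80 in MV-4-11 and -1.48 in THP-1.

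The guanylate-binding proteins attack membranes around intracellular pathogens and are classic targets of interferon gamma, and CXCL10 is a chemokine for T cells. Of its 5 genes, 1 fell in MOLM-13, 2 in MV-4-11 and 3 in THP-1 at 24 h. At 72 h 1 rose and 2 fell, 1 rose and 0 fell, and 0 rose and 1 fell in these lines. Over all genes 23.5%, 22.4% and 24.1% fell at 24 h in this order of lines. The 72 h shares were 30.3%, 28.4% and 30.9% for rises, with 29.4%, 26.1% and 28% for falls. As shares of the 5, the only counts above these were the 24 h falls of MV-4-11 and THP-1 and the 72 h falls of MOLM-13. GBP5 had the highest mean level, with 2.07/0.629 CPM in MOLM-13 under DMSO and 4.74/3.62 at 72 h (1.42 ± 0.34, edgeR adjusted p = 0.00142; 2.51 without DMSO replicate 1). In MV-4-11 it had 0 counts under DMSO and at 24 h, and 0.291/0.571 CPM at 72 h, at least 5.69-fold higher than DMSO with 3 counts over that group as the limit. Its fitted change there was 6.02 ± 1.56 (edgeR adjusted p = 0.00299), a value that depends on the prior count and moved to 5.43 without BRM014 replicate 2. In THP-1 it stood at 10.0/11.4 CPM, 9.67/9.0 at 24 h and 8.95/11.6 at 72 h, with no call. GBP4 fell in MV-4-11 at 24 h from 0.389/0.958 CPM to 0.162/0.143 (-2.20 ± 0.74, edgeR adjusted p = 0.0187), but not past the threshold without DMSO replicate 2 (-1.38) or without BRM014 replicate 1 or 2 (-2.29 and -2.11). CXCL10 in THP-1 had 0.125/0.643 CPM under DMSO and 0 counts at 24 h and 72 h, at least 5.63-fold and 4.76-fold lower. These 2 calls (edgeR adjusted p = 0.0173 and 0.0188, with a fitted -5.95 in both) rested mainly on DMSO replicate 2, without which the adjusted p was 0.229 and 0.222 and the fitted change -4.30 in both. Leaving out BRM014 replicate 1 or 2 also ended each call, with adjusted p of 0.0671 and 0.0811 at 24 h and 0.0832 and 0.0721 at 72 h.

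The remaining members include IFI6 and IFI27, membrane proteins of the endoplasmic reticulum and mitochondria, IFI44 and IFI44L, a pair of related cytosolic proteins, XAF1, a pro-apoptotic protein, EPSTI1, and LGALS3BP, a secreted glycoprotein. IFI44L fell in all 6 BRM014 comparisons. In MOLM-13 it had 1.36/1.38 CPM under DMSO, 0 counts at 24 h and 0/0.0532 CPM at 72 h, at least 14.9-fold lower at 24 h (edgeR adjusted p = 2.02e-05, fitted -7.85 ± 1.20). In MV-4-11 it fell from 16.8/17.2 CPM to 3.78/3.61 at 24 h (-2.27 ± 0.26, edgeR adjusted p = 6.57e-07) and 6.69/5.71 at 72 h (-1.52 ± 0.25). In THP-1 it fell from 1.06/1.63 CPM to 0.105/0 at 24 h and 0.0553/0 at 72 h, ratios of 0.0356 (95% interval 0.00419 to 0.135) and 0.0210 (95% interval 0.000522 to 0.123). The fitted THP-1 changes of -4.67 ± 0.75 (edgeR adjusted p = 3.51e-05) and -5.34 ± 0.86 (edgeR adjusted p = 2.61e-05) rest on very few treated counts, all in replicate 1. They moved to -7.69 and -3.67 without BRM014 replicates 1 and 2 at 24 h and to -7.69 and -4.55 at 72 h. IFI44 fell in MOLM-13 from 7.17/6.67 CPM to 0.434/0.364 at 24 h (-4.22 ± 0.37, edgeR adjusted p = 7.75e-09). EPSTI1 went there from 1.48/1.38 CPM to 0 counts at 72 h, at least 18.7-fold lower (edgeR adjusted p = 1.79e-06, fitted -7.91 ± 1.04). In MV-4-11 it rose from 0.278/0.335 CPM to 1.86/1.61 at 72 h (2.40 ± 0.48), so that the lines moved apart.

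LGALS3BP rose in all 3 lines by 72 h, and XAF1 in MV-4-11 and THP-1. LGALS3BP rose in MOLM-13 from 0.889/0.881 CPM to 2.30/2.43 at 24 h (1.29 ± 0.30, edgeR adjusted p = 0.00124) and 5.39/6.01 at 72 h (2.49 ± 0.25, edgeR adjusted p = 2.48e-08). In MV-4-11 it had 2.28/3.26 CPM under DMSO, 1.51/2.09 at 24 h and 9.37/8.93 at 72 h (1.65 ± 0.18). In THP-1 it had 1.44/2.23 CPM, 3.82/2.78 and 4.53/4.78 (1.23 ± 0.22). XAF1, the most abundant of this group, rose in MV-4-11 from 20.8/20.2 CPM to 38.1/36.2 (0.79 ± 0.15) and 81.0/78.5 (1.90 ± 0.15). In MOLM-13 its libraries had 102/97.0 CPM under DMSO, 76.1/81.7 at 24 h and 89.5/101 at 72 h, and in THP-1 37.3/34.6, 32.8/38.5 and 63.0/57.3. Of these, the 72 h rise in THP-1 was 0.66 ± 0.14. The gene shares 34.7% of its 50-base windows with PRAL, so its counts are uncertain.

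The difference between lines was tested directly, as an edgeR F test of whether the BRM014 effect was the same in MOLM-13, MV-4-11 and THP-1. It was called for 29 members at 24 h and 35 at 72 h, where 43.5% and 52.9% of all genes were. Members that fell in MOLM-13, rose in MV-4-11 and differed between lines numbered 8 at 24 h, where 1.11% of all genes did so, and 14 at 72 h, where 2.7% did. The 8 at 24 h were IFIT1, IFIT2, IFIT3, OASL, RSAD2, ISG15, USP18 and XAF1. The 14 at 72 h were IFIT1, IFIT2, IFIT3, OAS1, OAS3, OASL, RSAD2, CMPK2, ISG20, SAMD9, ISG15, USP18, IFI6 and EPSTI1. The reverse pattern, up in MOLM-13 and down in MV-4-11, was met by IFITM2 and LGALS3BP at 24 h (1.36% of all genes) and by 0 members at 72 h (1.8%). At 72 h 11 members fell in MOLM-13 and rose in THP-1, where 1.88% of all genes did. The adjusted p of this F test at 72 h was 7.96e-14 for IFIT3, 5.69e-12 for IFIT2 and 8.49e-10 for RSAD2. MV-4-11 and THP-1 also parted: 6 members rose in MV-4-11 and fell in THP-1 at 72 h, where 3.05% of all genes did. They were IFITM3, CMPK2, SAMD9, IFIH1, PARP9 and EPSTI1. Of the called effects named in this paragraph, IFITM3 at 72 h in MV-4-11 had 1.16/1.45 CPM against 0.445/0.383, and its rise of 1.60 ± 0.49 was not called without BRM014 replicate 2 (1.42) or DMSO replicate 2 (1.5). The OAS1 rise in MV-4-11 at 72 h (1.32 ± 0.37) was 0.79 and not called without DMSO replicate 1, and 2.33 without DMSO replicate 2. At 24 h the OASL rise in MV-4-11 (1.15 ± 0.38) was not called without BRM014 replicate 2 (0.54) or DMSO replicate 1 (0.90), nor the LGALS3BP fall there (-0.69 ± 0.23) without BRM014 replicate 1 (-0.49) or DMSO replicate 2 (-0.39). The XAF1 fall in MOLM-13 at 24 h (-0.46 ± 0.13) was not called without BRM014 replicate 1 (-0.42). In THP-1 at 72 h the IFI6 rise (0.57 ± 0.17) was not called without BRM014 replicate 1 (0.48) or DMSO replicate 1 (0.38), nor the ISG20 rise (1.71 ± 0.43) without BRM014 replicate 1 (1.13).

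**Figure D4:**
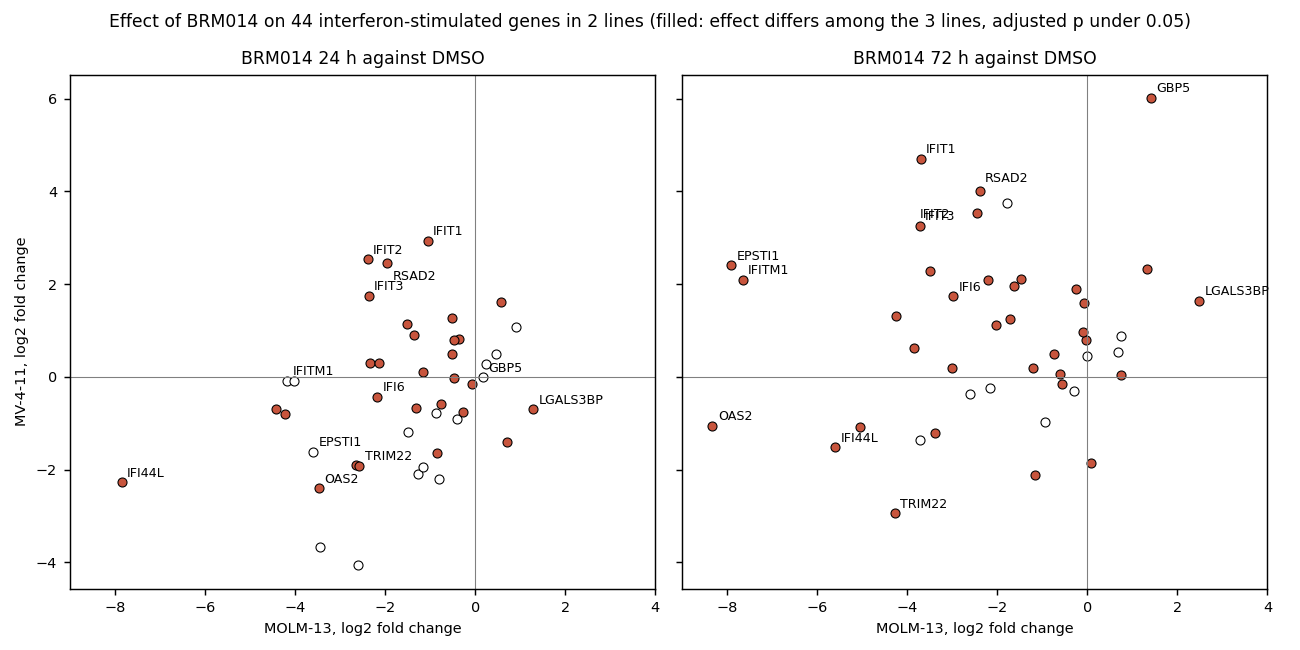
Log2 fold change of BRM014 against DMSO for the 44 members in MOLM-13 (horizontal) and MV-4-11 (vertical) at 24 h and 72 h, filled where the effect differed among the 3 lines at an adjusted p under 0.05. The upper left part, lower in MOLM-13 and higher in MV-4-11, holds IFIT1, IFIT2, IFIT3 and RSAD2 at both times.

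Members with an ISRE core were called in both directions, and the balance varied by line. Of the 27 members with an ISRE core, 2 were higher and 19 lower in MOLM-13 at 72 h, while 14 were higher and 3 lower in MV-4-11. In THP-1 10 were higher and 12 lower. Of the 8 matched members without one, 3 were higher and 3 lower in MOLM-13, 6 higher and 1 lower in MV-4-11, and 4 higher and 2 lower in THP-1. After PMA all 27 and all 8 were higher. IFIT1, IFIT3, ISG15 and IFI6, whose cores are printed above, were lower in MOLM-13 and higher in MV-4-11 and THP-1 at 72 h. IFI44L, with a core of the same form, was lower in every line. No test was made of the 27 against the 8.

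Between 24 h and 72 h of BRM014 more members rose than fell in MV-4-11 and THP-1, and more fell than rose in MOLM-13. Whether these changes differed between the lines was not tested. In MV-4-11, 27 members were higher at 72 h than at 24 h and 3 lower, where 18.6% and 16.9% of all genes were, with a median log2 change of 1.07, or 1.00 at the floor, against 0 (0.031 without genes at 0 counts in both groups). In MOLM-13, 7 were higher and 15 lower (20.8% and 22.7% of all genes), with a median of -0.29, against 0 (0.013 likewise). In THP-1, 10 were higher and 3 lower (16.2% and 16.5%), with a median of 0.10, against 0.0087. The largest called rises in MV-4-11 were those of GBP5, at least 5.79-fold from 0 counts (edgeR adjusted p = 0.00426), EPSTI1, from 0.216/0 CPM to 1.86/1.61, and IFITM3, from 0.216/0.238 CPM to 1.16/1.45 (2.51 ± 0.56, edgeR adjusted p = 0.00125). For EPSTI1 the fitted rise of 4.02 ± 0.60 (edgeR adjusted p = 2.33e-05) was 7.98 and 2.97 without 24 h replicates 1 and 2. Of the 3 falls, TRIM22 had -1.02 ± 0.23 (edgeR adjusted p = 0.00126). Those of BST2 (-0.46 ± 0.16, edgeR adjusted p = 0.0322) and IFITM2 (-0.45 ± 0.17, edgeR adjusted p = 0.0411) were lost without single libraries, BST2 without 24 h replicate 2 (-0.37) or 72 h replicate 1 or 2 (-0.49 and -0.45), and IFITM2 without 24 h replicate 1 (-0.28) or 72 h replicate 2 (-0.30).

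In MOLM-13 the largest called rises from 24 h to 72 h were in IFIH1, from 7.38/8.26 CPM to 19.1/20.8 (1.28 ± 0.14, edgeR adjusted p = 2.98e-07), LGALS3BP (1.20 ± 0.20, edgeR adjusted p = 5.26e-05) and GBP5 (1.24 ± 0.33, edgeR adjusted p = 0.00454). The last was not called without 24 h replicate 2 (1.00) or 72 h replicate 1 (1.03). IFIH1 at 72 h overlapped its DMSO libraries, at 19.6/15.9 CPM. The largest falls were in IFIT1 (-2.65 ± 0.39, edgeR adjusted p = 1.12e-05; -3.39 without 72 h replicate 2), and in OAS2 and IFITM1, which had 1 count each at 72 h. Their ratios to 24 h were 0.0288 (95% interval 0.000705 to 0.174) and 0.0759 (95% interval 0.00176 to 0.522). The fitted OAS2 change of -4.85 ± 1.16 (edgeR adjusted p = 0.00177) was -3.05 and not called without 24 h replicate 2, and -5.62, -7.09 and -4.06 without 24 h replicate 1, 72 h replicate 1 and 72 h replicate 2. The fitted IFITM1 change of -3.47 ± 0.95 (edgeR adjusted p = 0.00504) was -5.71 without 72 h replicate 1, and -2.68 and not called without 72 h replicate 2. In THP-1 MX1, an antiviral GTPase, rose from 1.20/0.974 CPM at 24 h to 2.71/2.88 at 72 h (1.32 ± 0.28, edgeR adjusted p = 0.00108), and IFIT2 from 6.59/6.54 to 17.7/16.8 (1.35 ± 0.20, edgeR adjusted p = 3.02e-05). MX1 had 5.07/7.18 CPM under DMSO, so that both treated pairs lay below it. IFIT1 rose by 1.36 ± 0.37 (edgeR adjusted p = 0.00868), but not past the threshold without 24 h replicate 2 (0.93) or 72 h replicate 2 (0.64). IFITM2 fell (-0.62 ± 0.14, edgeR adjusted p = 0.00145), as did SP100 (-0.33 ± 0.10, edgeR adjusted p = 0.0170) and BST2 (-0.33 ± 0.12, edgeR adjusted p = 0.0376). The BST2 fall was lost in each fit without 1 of these libraries (-0.27 to -0.41 on the log2 scale), and that of SP100 without 24 h replicate 2 (-0.29) or 72 h replicates 1 and 2 (-0.35 and -0.31).

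PMA gave the highest levels of the set. Summed over the 44 members, the PMA libraries held 5841 and 4544 CPM and the THP-1 DMSO libraries 789 and 778 CPM. Replicate 1 of PMA was higher than replicate 2 for 36 of the 44 members. The summed myeloid markers were 2870 to 3027 CPM under DMSO and 10644 to 10645 CPM in PMA, where LYZ alone had a mean of 8366 CPM. The part of the replicate difference or of the markers in these values was not tested. GBP1 rose from 0.439/0.247 CPM to 55.2/44 (7.27 ± 0.47, edgeR adjusted p = 1.54e-09), and IFI44L from 1.06/1.63 to 135/72.0 (6.31 ± 0.31, edgeR adjusted p = 5.44e-12). MX1 went from 5.07/7.18 CPM to 398/354 (6.01 ± 0.15, edgeR adjusted p = 2.91e-16), the OAS3 libraries from 17.8/16.5 to 569/341 (4.81 ± 0.17), and IFI6 from 10.7/14.4 to 380.3/495 (5.2 ± 0.17). For each of these 5 genes both PMA libraries lay above both DMSO libraries. Per length IFI6 led with 506 RPKM, followed by BST2 with 253 and ISG15 with 147. ISG15 rose from 7.89/7.32 CPM to 123/153 (4.27 ± 0.17), and BST2 and TRIM22, which BRM014 lowered, rose to 253/313 (1.30 ± 0.11) and 156/105 CPM (3.96 ± 0.22). CXCL10 had 25.3/7.64 CPM, a rise of 5.39 ± 0.71 (edgeR adjusted p = 1.26e-05), which was 4.73 and 7.04 without DMSO replicates 1 and 2 and 4.34 and 6.0 without PMA replicates 1 and 2. IFI27 was called on 1 library: its 19 counts were all in PMA replicate 2 (0/1.00 CPM), and without that library it had 0 counts in both groups. Its rise was at least 5.80-fold over the group (edgeR adjusted p = 0.0445, fitted 6.33), but 0.140 and 0.173 were the adjusted p without DMSO replicates 1 and 2. Its PMA and DMSO libraries overlapped.

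The largest rises after DB2313 were in LGALS3BP, IFITM1 and IFITM3. LGALS3BP rose from 1.44/2.23 CPM to 335/341 (7.42 ± 0.17, edgeR adjusted p = 1.73e-17), IFITM1 from 4.01/4.16 to 127/99.4 (4.71 ± 0.21, edgeR adjusted p = 1.64e-13) and IFITM3 from 15.2/17.9 to 332/253 (4.07 ± 0.17, edgeR adjusted p = 7.67e-14). These 3 had lower levels after PMA, at 57.7/62.5, 29.8/20.7 and 129/110.4 CPM, a difference between the treatments that was not tested. With DB2313, where 35.9% of all genes rose, all 7 IFIT and IFITM genes rose, IFITM2 by 0.91. So did all 5 of OAS and PKR, all 4 of ISG15 conjugation and all 6 of sensing and signalling. In the last group STAT2 went from 77.5/65.5 CPM to 356/385 (2.30 ± 0.11), and in the guanylate-binding group GBP5 from 10.0/11.4 to 98.7/107 (3.18 ± 0.23). The 4 members that fell were TRIM22, IFI44L, XAF1 and BST2. TRIM22 went from 9.33/8.41 CPM to 1.53/2.03 (-2.38 ± 0.28, edgeR adjusted p = 3.73e-07), IFI44L from 1.06/1.63 to 0.264/0.378 (-2.14 ± 0.52, edgeR adjusted p = 0.00129) and XAF1 from 37.3/34.6 to 16.7/20.8 (-1.01 ± 0.15, edgeR adjusted p = 5.78e-06). BST2 went from 119/125 CPM to 105/84.8 (-0.44 ± 0.11), and without DB2313 replicate 2 its change was -0.27 and not called. Of the members with a PU.1 core, OAS3 rose (164/179 CPM, 3.25 ± 0.16) and SAMD9L was not called, with 45.2/43.2 CPM under DMSO and 35.5/39.6 after DB2313. Beside these values the summed myeloid markers were 1180 to 1238 CPM after DB2313, below the 2870 to 3027 CPM of DMSO. They did not all move alike: LYZ had its lowest group mean after DB2313, 60.8 CPM, and CD33 its highest, 132 CPM. The summed B cell markers were 13.6 to 13.8 CPM against 3.51 to 4.55, with MS4A1 at 0 in both groups. The summed fibroblast markers were 35.3 to 39.0 CPM against 2.19 to 2.57, with COL1A2 at 0 in both, and the epithelial markers 0.755 to 1.27 CPM against 0 to 0.0495. Their part in the result was not tested. Whether DMSO and DB2313 cells were prepared in the same round is not labelled.

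At 72 h the 2 inhibitors could be compared directly in THP-1, BRM014 at 1 µM and DB2313 at 3 µM. Of the 44 members, 3 were higher and 35 lower with BRM014, where 30.4% and 30.9% of all genes were, with a median of -1.56, or -1.46 at the floor, against 0.012. IFITM1 had 0.221/0.184 CPM with BRM014 and 127/99.4 with DB2313 (-9.08 ± 0.31, edgeR adjusted p = 2.85e-15), LGALS3BP 4.53/4.78 and 335/341 (-6.19 ± 0.15, edgeR adjusted p = 3.92e-17) and IFITM3 7.68/8.83 and 332/253 (-5.16 ± 0.18, edgeR adjusted p = 5.94e-15). The 3 members higher with BRM014 were XAF1, with 63.0/57.3 against 16.7/20.8 CPM (1.67 ± 0.15, edgeR adjusted p = 5.32e-09), IFIT2, with 17.7/16.8 against 8.83/6.99 CPM (1.12 ± 0.20, edgeR adjusted p = 5.71e-05), and IFI35 (0.37 ± 0.14, edgeR adjusted p = 0.0261). The IFI35 difference was 0.27 without BRM014 replicate 2 and 0.16 without DB2313 replicate 2, and was called in neither. The compounds have different doses and targets, so these are differences between 2 treatments as given. This comparison shares the DB2313 libraries with that of DB2313 against DMSO, and the BRM014 libraries with that of BRM014 against DMSO.

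The genes upstream of the set were followed with lists of interferon, receptor, transcription factor, sensor, regulator and ISG15 enzyme genes. None of 21 interferon genes reached the level for a test: 7 had any count, and their summed counts were 0 to 10 per library. Of 11 receptor and JAK-STAT genes, 10 rose and 1 fell in MOLM-13 at 72 h, 9 rose in MV-4-11, and 6 rose and 2 fell in THP-1, where 30.3% and 29.4%, 28.4% and 26.1%, and 30.9% and 28% of all genes did. IFNGR2, a receptor chain for interferon gamma, rose from 11.9/13.4 CPM to 133/149 in MOLM-13 at 72 h (3.29 ± 0.23). IFNAR2, a chain of the type I receptor, rose there from 63.1/59.5 CPM to 197/205 (1.52 ± 0.070), in MV-4-11 from 57.7/58.6 to 137/128 (1.13 ± 0.070) and in THP-1 from 77.6/76.7 to 142/145 (0.81 ± 0.069). IFNAR1, its partner, rose by 0.34, 0.82 and 0.42 at 72 h in these lines. These receptor chains were higher also in MOLM-13, where most members of the set fell. A link between these RNA levels and the set was not tested. The largest fall of this list was that of IFNGR1, lower with BRM014 than with DB2313 (-1.52 ± 0.11).

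IRF9, the DNA-binding part of ISGF3, rose in all 3 lines, by 0.90, 2.42 and 0.90 at 72 h in MOLM-13, MV-4-11 and THP-1. IRF7, which drives interferon genes and is itself interferon-induced, went from 9.48/7.17 CPM to 3.91/7.29 and 5.49/5.43 in MOLM-13 and from 1.45/1.68 to 3.30/4.18 and 9.77/10.1 in MV-4-11 (2.60 ± 0.31 at 72 h). In MOLM-13 its 72 h change of -0.80 ± 0.28 was -0.60 without DMSO replicate 1 and -0.81 and -0.79 without BRM014 replicates 1 and 2, and was called in none of these fits. It was not called in THP-1, with 1.94/2.42 CPM under DMSO and 2.98/4.05 at 72 h. IRF1, an interferon-induced transcription factor, rose in MV-4-11 (1.01 ± 0.13 at 72 h) and fell in THP-1 (-0.47 ± 0.12). Its MOLM-13 rise of 0.34 ± 0.12 at 72 h was not called without BRM014 replicate 2 (0.30) or DMSO replicate 1 (0.26). After PMA and DB2313, IRF9 rose by 2.06 and 1.76, IRF7 by 2.58 and 2.22 and IRF1 by 0.46 and 1.60. IRF8, a myeloid lineage factor, fell in every BRM014 group, in MV-4-11 from 251/260.4 CPM to 5.41/5.5 at 72 h (-5.61 ± 0.12), in MOLM-13 from 529.7/534 to 39.9/46.6 (-3.81 ± 0.096) and in THP-1 from 817/808 to 213/207 (-2.04 ± 0.088).

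**Figure D5:**
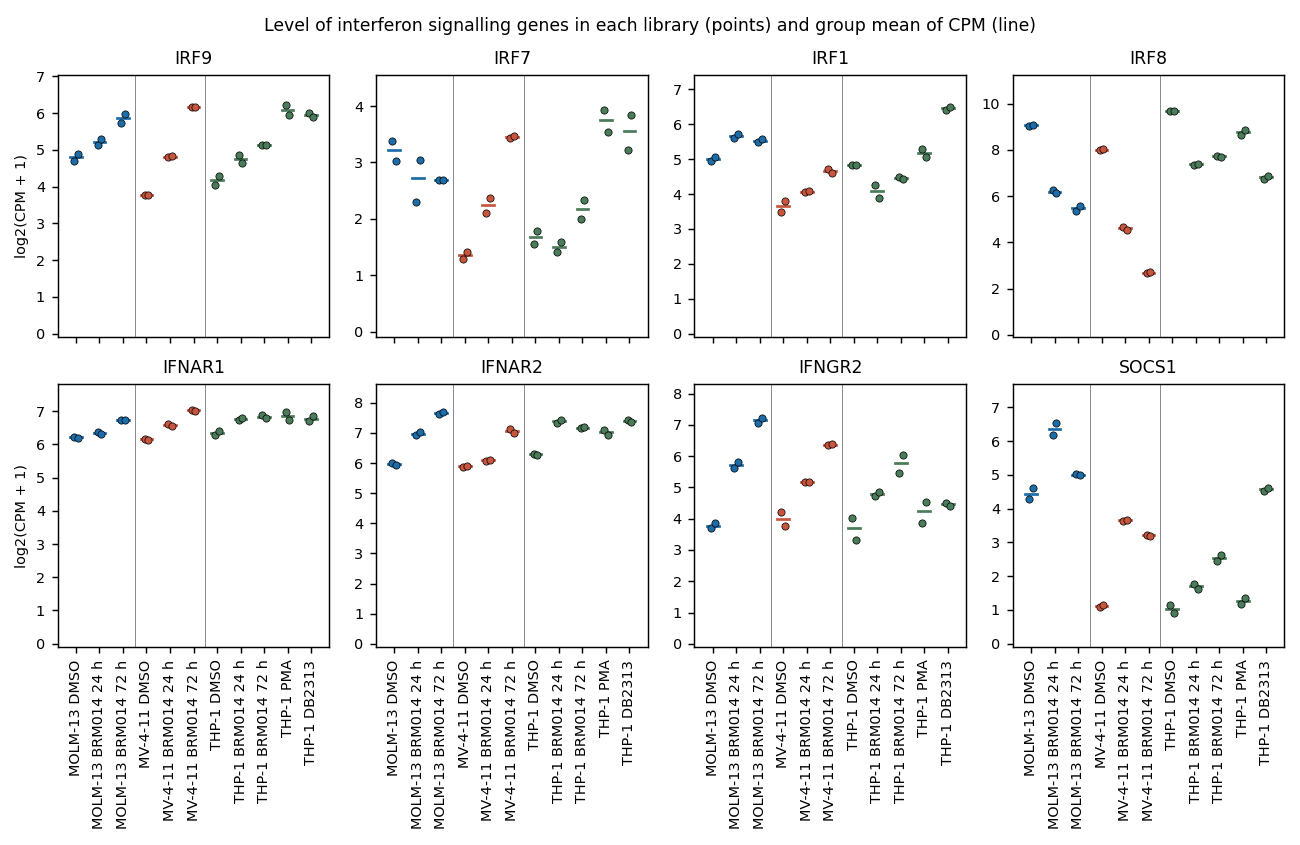
Level of 8 interferon signalling genes in each library, as log2(CPM + 1), for the 11 groups, with points for libraries and lines for the mean CPM of each group. At 72 h of BRM014, IRF9 and SOCS1 are higher and IRF8 is lower than with DMSO in all 3 lines.

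Most genes on the list of 6 ISG15 enzymes fell with BRM014. Of the 6, 5 were lower in each of the 6 BRM014 comparisons, in which 22.4% to 29.4% of all genes were lower. They were UBA7, the activating enzyme, UBE2L6, the conjugating enzyme, UBE2E1, UBE2E2 and TRIM25. HERC5, the main ligase, is a member and not on this list. It fell in MOLM-13, but was not called lower in MV-4-11 and rose in THP-1 at 72 h. Its mean THP-1 level was 1.70 RPKM under DMSO and 2.89 at 72 h. UBA7 went from 26.1/24.7 CPM to 5.73/5.16 in MOLM-13 (-2.41 ± 0.13), from 14.0/13.2 to 7.62/7.84 in MV-4-11 (-0.87 ± 0.13) and from 76.9/77.2 to 22.6/26.1 in THP-1 (-1.75 ± 0.11), all at 72 h. In MV-4-11 and THP-1 this fall stood beside a rise of ISG15 itself. UBE2L6 had the largest rise of the list, after PMA, from 11.3/11.1 CPM to 66.7/71.8 (2.72 ± 0.13), and its largest fall, lower with BRM014 than with DB2313 (-3.05 ± 0.14). The TRIM25 fall in MOLM-13 at 72 h, -0.26 ± 0.080, was -0.23 without BRM014 replicate 2 and -0.23 without DMSO replicate 2, and called in neither.

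Of 15 nucleic acid sensors and adaptors tested of 17 listed, 4 rose and 7 fell in MOLM-13 at 72 h, 6 rose and 5 fell in MV-4-11, and 5 rose and 5 fell in THP-1, where 30.3% and 29.4%, 28.4% and 26.1%, and 30.9% and 28% of all genes did. In THP-1 these shares lay near those of all genes. After PMA 11 rose and 3 fell (18.9% and 17.1% of all genes), and after DB2313 11 rose and 2 fell (35.9% and 29.5%). TLR7, a sensor of single-stranded RNA, had the largest rise, after PMA (5.97 ± 0.64), or 5.11 and 11.35 without DMSO replicates 1 and 2. AIM2, a sensor of cytosolic DNA, had 0 counts with 72 h of BRM014 in THP-1 and was at least 29.5-fold lower there than with DB2313. Of 8 negative regulators tested of 9 listed, 2 rose and 2 fell in MOLM-13 at 72 h, 4 rose and 2 fell in MV-4-11, and 5 rose and 2 fell in THP-1, against the same shares of all genes. The MOLM-13 counts lay near them. SOCS3, a suppressor of cytokine signalling, had the largest rise, in MV-4-11 at 72 h, from 0.0556/0.431 CPM to 11.9/11.8 (5.44 ± 0.29; 4.70 and 7.53 without DMSO replicates 1 and 2). PTPN6, the phosphatase SHP-1, had the largest fall, lower with BRM014 than with DB2313 in THP-1 (-3.88 ± 0.12). SOCS1, which binds JAK kinases, rose in all 6 BRM014 comparisons, in MOLM-13 from 18.3/23.2 CPM to 70.8/91.7 at 24 h (1.84 ± 0.14) and in MV-4-11 from 1.11/1.20 to 11.5/11.6 (3.24 ± 0.20). Its 72 h rise in MOLM-13, 0.38 ± 0.14, was not called without DMSO replicate 1 (0.20) or without BRM014 replicate 1 or 2 (0.37 and 0.40).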

How the data were processed

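The 22 libraries were analysed from 1 table each of counts per gene symbol, as deposited. Per the labels' protocols, polyadenylated RNA was extracted with TRIzol and sequenced. Per the submitters' processing notes, the authors used HISAT2 2.1.0, HTSeq and DESeq2 with hg38; the annotation and strand setting are not given in the sources used here. The 5 HTSeq summary lines (unassigned reads) were left out; reads in no gene equalled 12.0 to 19.2% and ambiguous reads 3.04 to 3.82% per library. From these raw counts, edgeR 4.0.16 (R 4.3.3, limma 3.58.1) fitted all 11 groups together with TMM library sizes, after filterByExpr with a minimum of 10 counts, and its quasi-likelihood F test gave p-values with Benjamini-Hochberg adjustment over 16794 genes. Standard errors were obtained as the log2 change over the root of its F statistic. CPM used the reads in genes. The fit was tested on simulated counts. The members and gene lists were chosen with earlier results of these data known. Genes named with values were, per comparison, the 3 called members with the largest rise and fall, the most abundant member of each role group, members called alike in all BRM014 comparisons, a set of signalling genes, and per upstream list the called genes with the largest rise and fall, apart from items not reported here; other genes named were chosen after their values were seen. Positions and shared sequence come from GENCODE 29. Alternatives were library size alone, DESeq2 size factors, no filter, a minimum of 50 counts, a replicate block, the libraries of the line alone, DESeq2 1.42.0, and leaving out each library in turn.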

Additional observations from a re-analysis of the deposited data

Results flagged for a closer look

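For these members the effects of BRM014 went in opposite directions in different lines. The difference itself was tested (edgeR F test over the 3 lines, adjusted over all genes tested), and no explanation was tested. Only members among the 3 largest called rises or falls of a BRM014 comparison with DMSO at that time are listed. Others met the same pattern, among them OASL, ISG15 and USP18 at both times. At 24 h the adjusted p was 0.000127 for IFIT1, 7.69e-10 for IFIT2, 9.71e-05 for IFIT5, 2.20e-08 for IFITM2, 0.000355 for LGALS3BP and 1.01e-06 for RSAD2. At 72 h it was 1.08e-06 for EPSTI1, 1.61e-09 for IFIT1, 5.69e-12 for IFIT2, 7.96e-14 for IFIT3, 5.17e-08 for IFITM2 and 8.49e-10 for RSAD2.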

How the results depend on the processing

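Of 381 called changes of members over the 12 comparisons, 304 kept their call under every alternative run, 77 lost it under at least 1, and 0 reversed. Of the counts of members called, those that moved by over 1.5 times were all in small counts. For 72 h against 24 h of BRM014 in MOLM-13, 11 members were higher with no filter on low counts, against 7. In THP-1, 1 member was lower at 72 h than at 24 h when the libraries of that line were fitted alone, against 3. Leaving out 1 library gave 3 to 6 members higher in MOLM-13 at 24 h (3 without BRM014 24 h replicate 1 or DMSO replicate 2). It gave 4 to 7 higher in MOLM-13 at 72 h against 24 h (4 without 72 h replicate 1) and 1 to 2 lower in MV-4-11 (1 without 72 h replicate 2). In THP-1 at 72 h against 24 h it gave 6 to 9 higher (6 without 72 h replicate 2) and 1 to 2 lower (1 without 24 h replicate 2 or either 72 h replicate). Scaling by library size alone moved the median of all genes by up to 0.157 (log2) and the share of calls that were higher, over all genes, from 49.1% to 59.3% in MOLM-13 at 24 h and from 52.5% to 41.0% after PMA. The cause was not tested. With 2 libraries per group, members under a few CPM are limited by counting.

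Samples with the same replicate number showed little shared deviation (correlations across genes -0.023 to 0.085), and the main fit used no replicate block. With 1 replicate difference per group, this cannot show whether such samples were prepared together, which the labels do not say. With a replicate block, 1 member was lower in MV-4-11 at 72 h against 24 h, against 3, and no other count of members moved by over 1.5 times.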
